A study of Mus musculus with 191 samples.

Results

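The endothelial genes of lung vessels described here are 38 genes by which the cells lining arteries, capillaries, veins and lymphatics are recognised, chosen by symbol from the array annotation. Each gene was represented by the probe set with the highest mean that maps to that symbol alone, so 38 of 18194 measured genes make up the list. All 38 were measured and all passed the filter on low values, 37 of them with every array above the median of all deposited values. The exception was Gja5, which lay above that median on 14 arrays.

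The arrays measured RNA of whole lung from female B6C3F1 mice, a hybrid laboratory strain, aged 18 weeks after 13 weeks of exposure. There were 133 arrays of 34 exposed groups, covering 26 chemicals, and 58 arrays of 14 control sets that received air, corn oil, distilled water or rodent chow alone, with 3 to 5 arrays in a group and 4 array batches by the array names. No group carried a genetic change. The labels number the animals singly, and each array is taken as 1 animal.

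The groups with corn oil by gavage were 2,3-Benzofuran at 240 mg/kg (BFUR), Benzene at 100 mg/kg (BENZ), Coumarin at 200 mg/kg (COUM), 1,2-Dibromoethane at 62 mg/kg (DBET), 1,4-Dichlorobenzene at 600 mg/kg (DCBZ), 1,2,3-Trichloropropane at 60 mg/kg (TCPN), Iodoform at 93 mg/kg (IODO) and Trichlorofluoromethane at 3925 mg/kg (TCFM). Those in water were 2-Chloromethylpyridine hydrochloride at 250 mg/kg (CMPH) and N-Methylolacrylamide at 50 mg/kg (MACR). Those in chow were 1,5-Naphthalenediamine at 2000 ppm (NAPD), N-(1-naphthyl)ethylenediamine dihydrochloride at 2000 ppm (NEDD), Pentachloronitrobenzene at 8187 ppm (PCNB), 2,2-Bis(bromomethyl)-1,3-propanediol at 1250 ppm (BBMP), Diazinon at 200 ppm (DIAZ), Malathion (MALA, whose labels differ on the dose), 4-Nitroanthranilic acid at 10000 ppm (NAAC), 1-Amino-2,4-dibromoanthraquinone at 20000 ppm (ABDQ) and Tris(2,3-dibromopropyl)phosphate at 1000 ppm (TDPP). Those inhaled were Ethylene Oxide at 100 ppm (ETOX), Propylene glycol mono-t-butyl ether at 1200 ppm (PGBE), Vanadium Pentoxide at 2 mg/m3 (VANP), Tetrafluoroethylene at 1250 ppm (TFEL) and a compound that the labels spell Tetrafluororethane at 50000 ppm (TFEA). Methylene Chloride (MECL) was inhaled at 100, 500, 2000, 3000 and 4000 ppm and Naphthalene (NPTH) at 0.5, 3, 10, 20 and 30 ppm. Each exposed group was compared with the control sets of its vehicle and array batch, since the labels tie no chemical to a set of its own. A gene was called higher or lower where limma's Benjamini-Hochberg adjusted p, over 13524 tested genes, fell under 0.05 for each such set with the same sign; the adjusted p given is the largest over the sets.

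Endothelial cells line every vessel and, in the alveolar capillaries, form with the alveolar epithelium the thin surface over which gas is exchanged. Ligands of the VEGF family act on the receptors Kdr, Flt1 and Flt4, angiopoietins act on Tek with its partner Tie1, and BMP ligands act through Acvrl1 and Eng. The transcription factors Erg, Tal1, Sox7, Sox17 and Sox18 hold endothelial identity, and junction proteins such as Cdh5 and Cldn5 close the vessel wall.

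Promoters of 4 members are shown because Tie1 and Robo4 varied most closely with the other members between arrays, and because the VEGF receptors Flt1 and Kdr changed in different exposures. They are RefSeq's 250 bases before the gene start, 5′ to 3′ on the gene's strand, and capitals mark the letters AGGAAG or their reverse complement, the core of sites bound by ETS factors such as Erg.
Tie1 (GRCm38.p6 chr4:118489850-118490099, minus strand): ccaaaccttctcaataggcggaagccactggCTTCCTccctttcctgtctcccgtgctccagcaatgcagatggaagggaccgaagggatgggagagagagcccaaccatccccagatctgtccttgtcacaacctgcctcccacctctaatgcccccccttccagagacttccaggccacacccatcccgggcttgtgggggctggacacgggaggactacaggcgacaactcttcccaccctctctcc
Robo4 (GRCm38.p6 chr9:37401722-37401971, plus strand): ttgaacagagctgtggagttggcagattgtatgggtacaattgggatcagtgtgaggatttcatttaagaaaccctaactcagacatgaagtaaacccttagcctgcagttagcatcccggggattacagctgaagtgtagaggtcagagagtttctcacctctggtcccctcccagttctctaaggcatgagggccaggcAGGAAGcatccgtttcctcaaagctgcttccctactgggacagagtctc
Flt1 (GRCm38.p6 chr5:147726012-147726261, minus strand): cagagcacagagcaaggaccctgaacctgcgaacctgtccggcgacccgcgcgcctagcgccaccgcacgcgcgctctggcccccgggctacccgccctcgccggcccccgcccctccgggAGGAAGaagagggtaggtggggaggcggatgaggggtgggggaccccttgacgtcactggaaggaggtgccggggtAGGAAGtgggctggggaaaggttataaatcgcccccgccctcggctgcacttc
Kdr (GRCm38.p6 chr5:75978456-75978705, minus strand): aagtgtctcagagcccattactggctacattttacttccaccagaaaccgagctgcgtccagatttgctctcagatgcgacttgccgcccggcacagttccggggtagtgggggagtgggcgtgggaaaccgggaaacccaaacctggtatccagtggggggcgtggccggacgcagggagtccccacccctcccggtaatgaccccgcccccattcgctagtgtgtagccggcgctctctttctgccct
Of the 38 members, 21 had a promoter in this table. AGGAAG on either strand lay in 10 of the 21, against 32.3% of 27025 genes with a promoter of the same length. CACCC, the core of KLF boxes, lay in 18 of 21 against 54.5% of genes, AACAAT of SOX factors in 5 of 21 against 10.9%, and AGATAA of GATA factors in 2 of 21 against 11.4%. Genes with several starts counted where any start had a match; The 4 motifs were searched separately, and matches of different motifs may overlap. These matches describe the letters alone.

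Over all 34 exposures the endothelial list gave 49 calls in 1292 comparisons, 3.79% against 2.58% of all genes. The calls were 32 higher and 17 lower, and after quantile normalization within the array batch 42 higher and 40 lower. The 49 calls fell in 12 exposures, and 5 of these held 3 or more: Iodoform with 13 higher, Tetrafluoroethylene with 10 higher, 2,2-Bis(bromomethyl)-1,3-propanediol with 4 higher, Coumarin with 10 lower and Vanadium Pentoxide with 4 lower. In none of the 5 did called members move in both directions. A call had to hold against every control set, so exposures with several sets met a stricter rule than those with 1. Counts of Coumarin and Vanadium Pentoxide, with several sets, are thus not comparable with that of Iodoform, with 1. Against the unweighted mean of the set means, Coumarin and Vanadium Pentoxide had 19 lower each and Iodoform 13 higher. Lower calls then outnumbered higher calls over all exposures. Called at least in 1 exposure were 29 members, and 9 (Tek, Sox7, Esam, Emcn, Vwf, Ramp2, Car4, Gja5 and Lyve1) were called in none. In whole lung, fewer endothelial cells and less RNA per cell cannot be told apart.

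**Figure D1:**
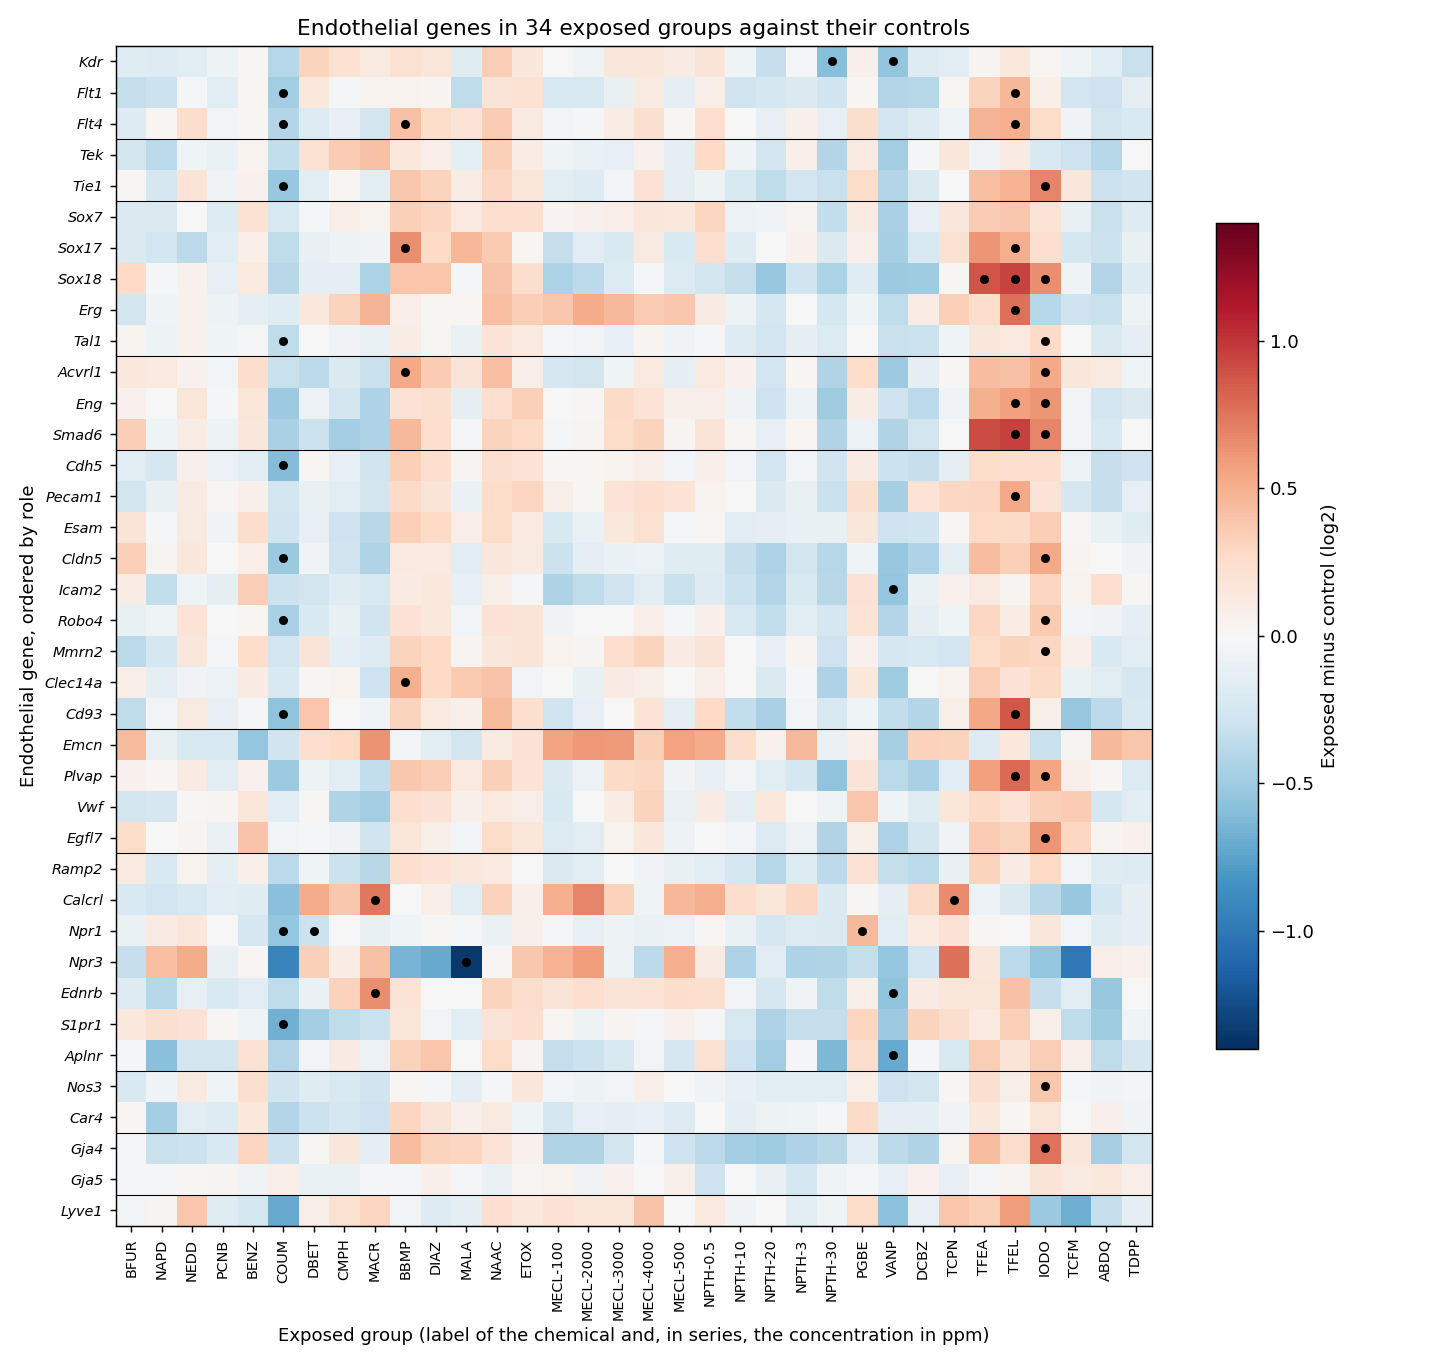
Differences between each exposed group (columns) and the mean of its control sets, in log2 units, for the 38 endothelial genes (rows, grouped by role); black dots mark calls. The red columns of TFEL and IODO and the blue columns of COUM and VANP run through most roles, while Npr3, Calcrl and Emcn follow patterns of their own.

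With Tetrafluoroethylene, the gaseous monomer of PTFE, endothelial genes of several roles rose. Called higher were 10 of 38 members, against 5.65% of all genes, with a median difference over the members of 0.29 against 0.02 over all genes, and 36 members lay above 0. They covered transcription factors (Sox18, Sox17, Erg), the BMP branch (Smad6, Eng), VEGF receptors (Flt4, Flt1) and surface proteins (Cd93, Plvap, Pecam1). Sox18, a factor of vessel and lymphatic development, read 3.90, 4.28, 3.85 and 3.89 on the 4 exposed arrays and 3.13, 3.26, 2.96 and 2.79 on the 4 air controls. The ranges did not meet, and the difference was 0.95 ± 0.20 (SE), 1.93-fold, with a limma adjusted p of 0.000789. Smad6, an inhibitor within BMP signalling, read 3.90, 4.01, 3.49 and 3.77 against 2.77, 3.09, 2.71 and 2.77. Its ranges were apart too, at 1.94-fold with a limma adjusted p of 0.0041. Cd93, a receptor at endothelial junctions, read 4.75, 4.76, 5.00 and 4.67 against 4.17, 4.15, 3.52 and 3.85, which is 1.83-fold with a limma adjusted p of 0.000255. Plvap, which builds the diaphragms of caveolae and fenestrae, read 4.41, 4.48, 4.21 and 4.50 against 3.74, 3.77, 3.55 and 3.39, 1.73-fold with a limma adjusted p of 0.00516. These 4 calls were made under every alternative setting and in every leave-out fit. Each such fit dropped the arrays of 1 number from all exposed groups together, or from at most 1 control set per vehicle and array batch. A comparison thus lost 1 array of its own, while other groups in the shared model lost arrays too. Erg rose by 0.77, Eng by 0.58, Pecam1 by 0.54, Sox17 by 0.51, Flt4 by 0.51 and Flt1 by 0.47. The count was 4 without exposed array 2, 5 without exposed array 3 and 4 without control array 3 (array numbers only name arrays). Among the other probe sets of called genes, 10 of 11 had the same sign; the exception was a Flt1 set at -0.09.

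Among the other lists, the Notch genes Hes1 (0.53) and Dll4 (0.45) rose, as did the ligands Vegfa (0.60) and Apln (0.50), the endothelial factor Hhex (0.44), the co-receptor Nrp2 (0.41) and the collagens Col4a2 (0.81) and Col1a1 (0.74). Calls were 2 of 10 tested Notch genes, 2 of 13 angiogenic ligands, 2 of 34 other endothelial genes and 2 of 12 fibroblast and matrix genes, against the 5.65% of all genes called higher, so that the other endothelial genes were called at the share of the background. Mmrn1 of lymphatic endothelium fell by 0.34. The alveolar type 2 mean lay at 5.35 to 5.46 on exposed arrays and 5.21 to 5.45 on controls. The 3′ minus 5′ value of the beta-actin probe sets, a sign of RNA integrity, was 0.22 ± 0.03 (SD, n = 4) on exposed and 0.60 ± 0.15 (SD, n = 4) on control arrays, with an exact two-sided permutation p of 0.0286, the smallest this design allows, and 0.0972 adjusted over 34 exposures. The RNA integrity number was 8.8 to 9.3 on the 3 exposed arrays that had one and 7.6 to 8.4 on the 4 controls, without overlap. The part of both measures in the result was not tested.

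The compound spelled Tetrafluororethane shared the air controls with Tetrafluoroethylene, at another concentration, so no comparison between them was made. Sox18 was its only called member, 1 of 38 against 0.0592% of all genes called higher, at 4.23, 4.46, 3.62 and 3.36, 1.84-fold with a limma adjusted p of 0.0301. The member median was 0.30 and Smad6 stood at 0.91, a difference that missed the test. After quantile normalization 7 members were called higher, against 2.59% of all genes. The Sox18 call was lost when the arrays were fitted alone and without exposed array 1 or 2 or control array 3 or 4.

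Iodoform, an antiseptic, gave the most calls, 13 of 38 higher against 15.6% of all genes. Its control arrays formed 1 set, so its call rule was looser than that of exposures with several. The member median was 0.26 against 0.06. The arterial gap junction gene Gja4 (0.76) led, followed by Tie1 (0.69), Smad6 (0.68), Sox18 (0.65), the secreted factor Egfl7 (0.62), Eng (0.62), Plvap (0.55) and the tight junction gene Cldn5 (0.53). Acvrl1 (0.53), the nitric oxide synthase Nos3 (0.38), the guidance receptor Robo4 (0.37), the matrix protein Mmrn2 (0.29) and Tal1 (0.27) followed. Gja4 read 2.42, 3.16, 1.79 and 2.32 against 1.49, 1.75, 1.43 and 1.96 in corn oil controls, and the ranges overlapped. Tie1 read 2.78, 3.52, 2.68 and 2.88 against 2.09, 2.56, 1.84 and 2.62, where array 2 lay far above the others. Cldn5 read 4.66, 5.46, 4.62 and 4.75 against 4.06, 4.63, 3.87 and 4.82, and again array 2 stood out. That array also had the widest spread of all arrays, an SD over probe sets of 1.44. No member was called without it, without control array 1 or without control array 3, and none when the 8 arrays were fitted alone. Notch genes went the same way, 4 of 10 called higher (Dll4 0.48, Notch4 0.45, Heyl 0.29, Jag2 0.27), while Angpt1, the Tek ligand, fell by 0.84. Of 34 other endothelial genes 4 were higher (Lmo2 0.48, Hhex 0.40, Lyl1 0.36, Stab1 0.35), a share below the 15.6% of all genes, and 1 was lower, Cd36 at -0.82. The beta-actin value was 0.35 ± 0.10 (SD, n = 4) against 0.69 ± 0.17 (SD, n = 4), with an exact two-sided permutation p of 0.0286 (0.0972 adjusted), and its part in the result was not tested.

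In mice fed 2,2-Bis(bromomethyl)-1,3-propanediol, a flame retardant, 4 of 38 members were called higher against 10.4% of all genes, a share near the background. They were Sox17 (0.65), a factor of arterial endothelium, Acvrl1 (0.53), Clec14a (0.49) and Flt4 (0.41). Sox17 read 2.41, 2.20, 3.04 and 2.64 against 2.00, 1.85, 1.90 and 1.95 in chow controls, and Clec14a 3.82, 3.68, 4.13 and 3.92 against 3.26, 3.11, 3.59 and 3.60, both without overlap. Ranges did not meet in 10 members, against 20.7% of all genes. Of the other lists, 3 of 34 other endothelial genes (Myct1 0.46, Cd34 0.45, Stab1 0.37), 2 of 13 angiogenic ligands (Vegfd 0.52, Pgf 0.29), the Notch gene Hey1 (0.50) and the matrix gene Fn1 (0.49) rose, and the club cell gene Scgb1a1 fell by 0.32. The club list mean was 5.18 to 5.32 on exposed arrays and 4.86 to 5.63 on controls, and the fibroblast and matrix mean 3.10 to 3.32 against 2.89 to 3.27. The leukocyte list mean, with no called gene of 13, was 1.51 to 1.73 on exposed arrays and 1.03 to 1.35 on controls, without overlap; the part of these lists was not tested. The member count was 9 when the comparison's arrays were fitted alone, and 1 when a gene's probe sets were averaged. No member was called after quantile normalization, and none without exposed arrays 3 or 4, whose SDs over probe sets were both 1.41, or without control array 2; the count was 1 without exposed array 1, 2 without control array 1 and 1 without control array 3. The beta-actin value was 0.32 ± 0.03 against 0.52 ± 0.07 (SD, n = 4 each), with an exact permutation p of 0.0286 (0.0972 adjusted), and its part was not tested.

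With Coumarin, a fragrance compound, 10 of 38 members fell, against 1.63% of all genes called lower, with a median of -0.38 against -0.06 and 37 members below 0. They were the lipid receptor S1pr1 (-0.67), the adherens junction cadherin Cdh5 (-0.61), Cd93 (-0.56), the natriuretic peptide receptor Npr1 (-0.54), Tie1 (-0.53), Cldn5 (-0.52), Flt1 (-0.49), Robo4 (-0.45), Flt4 (-0.41) and Tal1 (-0.36). Among the 9 other probe sets of these genes, 8 had the same sign and a Cd93 set had the opposite one. S1pr1 read 2.03, 1.84, 2.05 and 1.89 on exposed arrays, 2.54, 2.88, 2.50 and 2.80 in the control set CCO2, and 2.56, 3.01, 2.47 and 2.19 in CCO3. Npr1 read -0.19, -0.34, -0.15 and -0.16, against 0.21, 0.23, 0.41 and 0.46 in CCO2 and 0.55, 0.37, 0.16 and 0.26 in CCO3. Both genes lay below every control array, and Npr1, at 1.46-fold lower with a limma adjusted p of 8.81e-06, was called in every leave-out fit. Cdh5 read 2.62, 2.76, 2.61 and 2.39, against 3.12, 3.15, 3.17 and 3.31 in CCO2 and 3.38, 3.59, 2.91 and 2.98 in CCO3, again without overlap.

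Other cell types moved as well in the Coumarin arrays. Fibroblast and matrix genes were called lower in 5 of 12 (Eln -0.91, Col3a1 -0.87, Col1a1 -0.80, Npnt -0.61), smooth muscle genes in 3 of 11 (Cnn1 -0.67, Des -0.58, Tagln -0.57) and other endothelial genes in 2 of 34 (Vcam1 -0.53, Stab1 -0.44). The fibroblast and matrix mean was 2.17 to 2.95 on exposed arrays against 2.68 to 3.28, and the other endothelial mean 1.70 to 2.08 against 2.00 to 2.58. Exposed arrays 3 and 4 had SDs over probe sets of 1.05 and 1.01, and without either the member count was 1, as it was without both. The count was 6, 5 and 5 without CCO2 arrays 2, 3 and 4, and 6 and 2 without CCO3 arrays 1 and 2. It was 5 after quantile normalization, against 3.22% of all genes, and 0 when the comparison's arrays were fitted alone. It was 11 against CCO2 alone and 14 against CCO3 alone, where 4.92% and 4.32% of all genes were lower. Against the unweighted mean of the set means it was 19, where 8.5% of all genes were lower. Over the group, the SD over probe sets was 1.14 ± 0.14 (SD, n = 4) against a mean of 1.22 on 8 controls, with an exact two-sided permutation p of 0.283 (0.637 adjusted over 34 exposures). Its part in the result was not tested.

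Inhaled Vanadium Pentoxide, an industrial catalyst, gave values below the air controls for all 38 members, with a median of -0.41 against -0.01 over all genes. Called lower were 4 of 38, against 1.31% of all genes: Aplnr, the apelin receptor (-0.70), Ednrb, an endothelin receptor of capillaries (-0.57), Kdr, the main VEGF receptor (-0.55), and Icam2, an adhesion protein (-0.55). Kdr read 2.22, 2.20, 2.34 and 2.23, and the 14 air controls ran from 2.48 to 3.12 with a median of 2.79. Aplnr read 2.43, 1.95, 2.16 and 2.25 against 2.51 to 3.28 with a median of 2.89. Ednrb read 1.73, 1.50, 1.66 and 1.64 against 1.85 to 2.62 with a median of 2.17, and Icam2 3.76, 3.56, 3.79 and 3.65 against 3.96 to 4.50 with a median of 4.22. All 4 lay outside the control range, as 9 members did, against 5.94% of all genes. Against single control sets the counts were 16 (ACO3), 15 (ACO4) and 4 (ACO5), against 3.03%, 3.65% and 2.65% of all genes. After quantile normalization 13 members were called, and 19 against the unweighted mean of the set means, where 2.6% and 5.55% of all genes were lower. The count was 2, 0, 1 and 1 without exposed arrays 1 to 4 in turn, and 0, 2 and 2 without ACO5 arrays 3, 4 and 5. Of other endothelial genes 5 of 34 fell (Ecscr -0.58, Cd34 -0.52, She -0.52, Palmd -0.52). Alveolar type 2 genes rose in 3 of 7 (Napsa 0.97, Sftpd 0.53, Slc34a2 0.50), against 3.02% of all genes called higher. The type 2 mean was 5.75 to 5.97 against 5.04 to 5.54, without overlap, and its part in the endothelial values was not tested. The spread of the exposed arrays, with SDs of 1.20 to 1.26, and their beta-actin value of 0.60 ± 0.05 (SD, n = 4) against 0.64 ± 0.13 (SD, n = 14) lay within the control ranges. The RNA integrity number was 9.3 to 9.6 on the 4 exposed arrays and 6.1 to 9.5 on the 13 controls that had one. The Kdr call was lost without arrays of a number under 7, and without exposed array 2, ACO3 array 1 or ACO5 array 3.

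**Figure D2:**
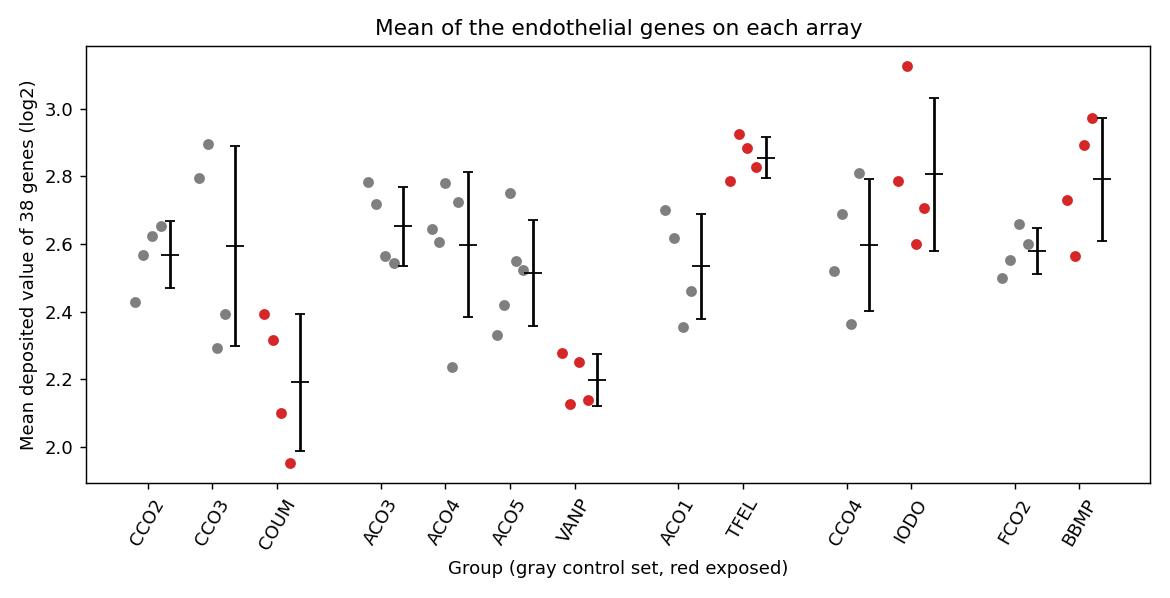
Mean deposited log2 value of the 38 endothelial genes on each array (points), with the group mean and SD (bars), for the 5 exposures with 3 or more called members and their control sets. All 4 Vanadium Pentoxide arrays fall below 13 of the 14 air controls, and Iodoform array 2 is the highest of those drawn.

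**Figure D3:**
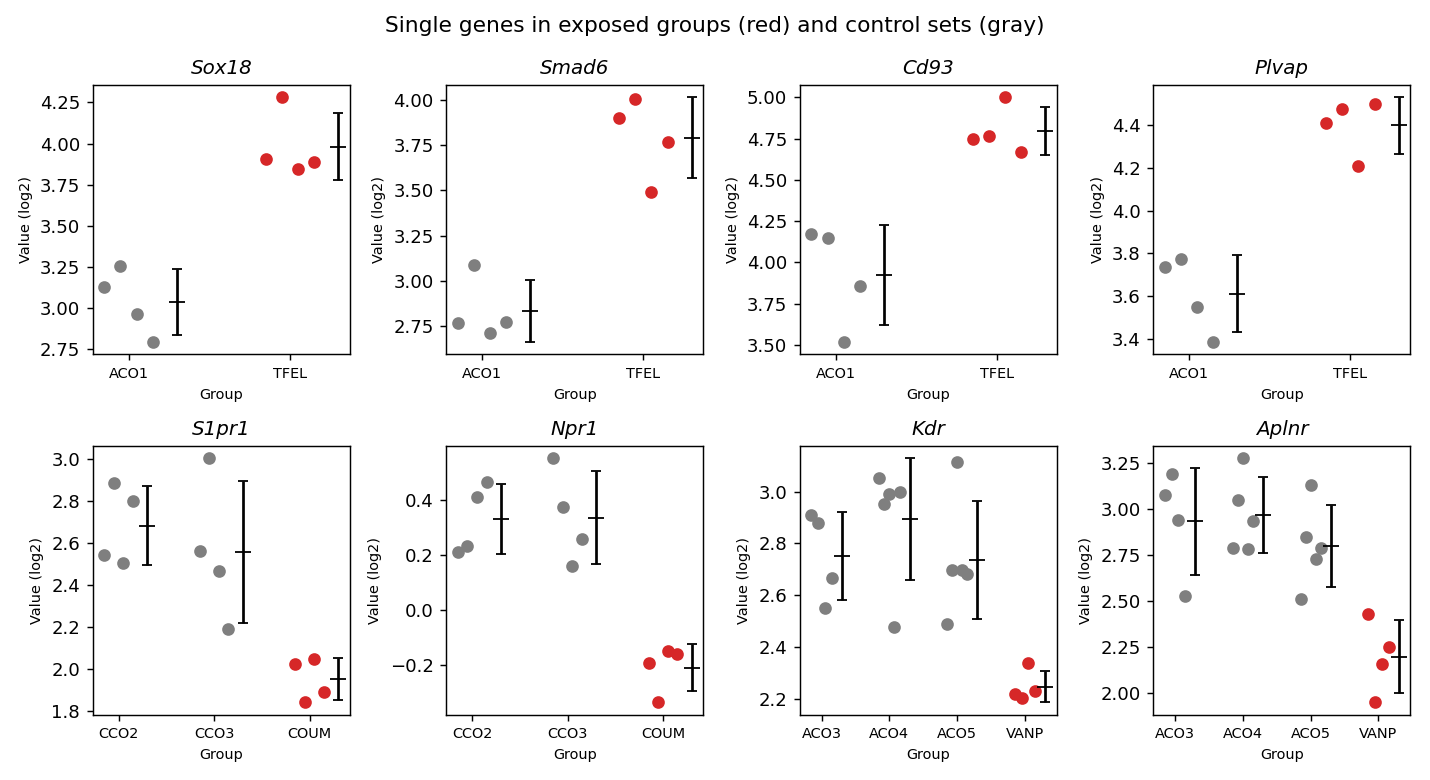
Deposited log2 value on each array (points), with mean and SD (bars), of 4 genes called higher in TFEL, 2 called lower in COUM and 2 called lower in VANP, beside their control sets. In all 8 panels the exposed points lie outside the control points.

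Naphthalene, which is bioactivated by club cells of the airway, was inhaled at 5 concentrations, and the endothelial genes fell as it rose. From 0.5 to 30 ppm, 15 of 38 members fell and 1 rose over 20 arrays, against 13.2% and 5.77% of all genes. The median fitted change was -0.31 against -0.07, and 37 members lay below 0, as did 67.4% of all genes. Aplnr (-0.78), Kdr (-0.71), Tek (-0.64), the surface sialomucin Emcn (-0.61), Calcrl (-0.58), Acvrl1 (-0.56), Eng (-0.54) and Smad6 (-0.52) changed most. The other 7 that fell were Sox7, Ednrb, Clec14a, Cd93, Mmrn2, Egfl7 and Flt4. Gja5, the member that rose (0.20), lay at -0.86 at 0.5 ppm and below the array median at all concentrations. Kdr read 2.79, 2.88, 3.06 and 3.16 at 0.5 ppm, 2.76, 2.95, 2.62 and 2.74 at 3 ppm, and 2.78, 2.59, 2.78 and 2.78 at 10 ppm. It then read 2.41, 2.62, 2.18 and 2.68 at 20 ppm and 2.46, 2.19, 2.14 and 2.00 at 30 ppm. The lowest and highest concentrations did not overlap, the limma adjusted p was 2.97e-06, and the call was made under every alternative. Tek, the angiopoietin receptor, read 3.46, 3.69, 3.67 and 3.71 at 0.5 ppm and 3.10, 3.04, 2.89 and 2.73 at 30 ppm. Air controls had a mean of 3.35 for Tek and 2.79 for Kdr, below the 0.5 ppm means of 3.63 and 2.97. Both quality measures differed between the lowest and highest concentration: the SD over probe sets was 1.25 to 1.29 at 0.5 ppm and 1.15 to 1.22 at 30 ppm, and the beta-actin value 0.65 to 0.87 and 0.51 to 0.61, without overlap in either. After quantile normalization, which gives the arrays of a batch the same spread, 11 members fell and none rose; the part of the beta-actin difference was not tested. Of other endothelial genes 17 of 34 fell, led by Cyyr1 (-0.82), Bmp6 (-0.77) and Myct1 (-0.69), while alveolar type 2 genes rose in 6 of 7. Pericyte and smooth muscle genes fell in 4 of 11 and club cell genes in 3 of 7. The count of falling members was 2 without the 0.5 ppm group, 5 without the 30 ppm group, 9, 8 and 7 without arrays 2, 3 or 4 of every group, and 25 with the air controls at 0 ppm.

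Against the air controls the 30 ppm group had all 38 members below 0, with a median of -0.31 against -0.05, but only Kdr was called, at -0.60 with a limma adjusted p of 0.00725, 1 of 38 against 0.466% of all genes. The other 4 concentrations had no called member, and 0.355% to 2.11% of all genes called. Against the unweighted mean of the set means, 11 members were lower at 30 ppm, against 3.58% of all genes, and 11 at 20 ppm, against 6.95%. At 30 ppm the counts against ACO3, ACO4 and ACO5 alone were 9, 6 and 1, against 1.8%, 2.51% and 0.843% of all genes. After quantile normalization 3 members were called there, against 0.828%. At 20 ppm the counts by set were 5, 3 and 1, against 3.03%, 2.62% and 2.54%, the last count being at the background. None was called at 20 ppm after quantile normalization. Kdr at 30 ppm was not called in the leave-out fits of exposed array 2 or 4, ACO3 array 1 or ACO5 array 3.

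**Figure D4:**
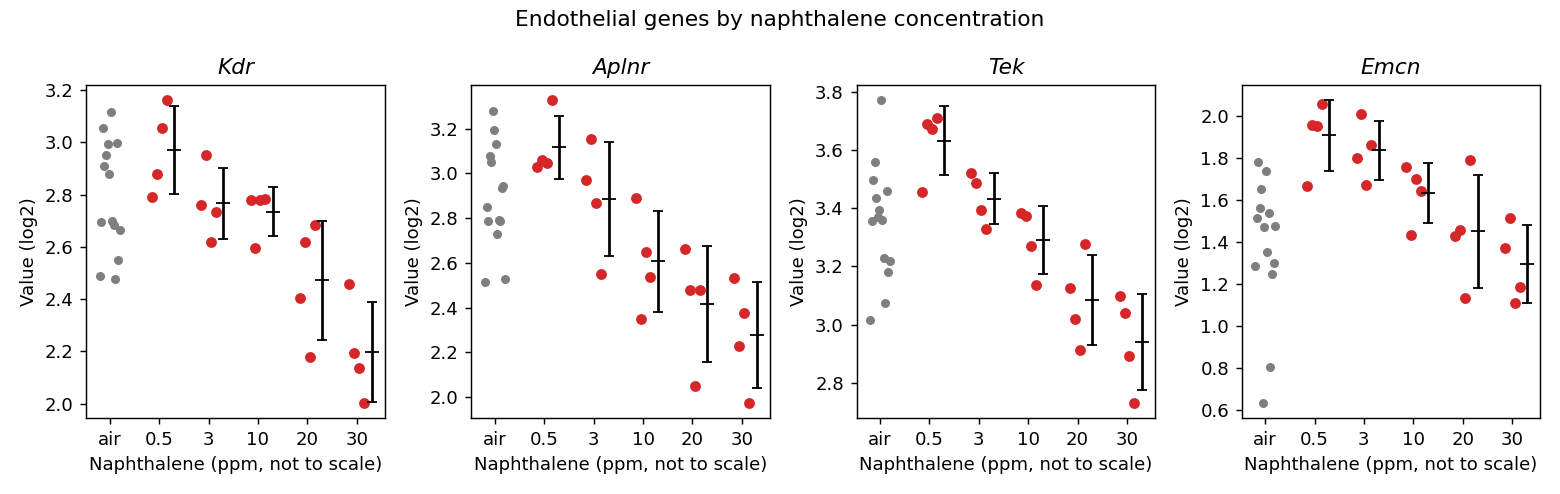
Deposited log2 values of Kdr, Aplnr, Tek and Emcn on each array at 5 naphthalene concentrations (red points, with mean and SD) and on 14 air control arrays (gray), the concentrations being equally spaced and not to scale. In each gene the 0.5 ppm arrays lie above the 30 ppm arrays. The air controls spread widely, and for Emcn most of them lie at the level of the 30 ppm arrays or below.

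Methylene chloride, a solvent, gave no called member at any single concentration, where 0% to 0.577% of all genes were called, but over 100 to 4000 ppm and 21 arrays 6 members rose and 2 fell, against 12.9% and 8.75% of all genes, shares near the background. Plvap (0.48), the clotting factor carrier Vwf (0.47), Cd93 (0.40), Esam (0.38), Egfl7 (0.29) and Mmrn2 (0.24) rose, and the clearance receptor Npr3 (-0.85) and Calcrl (-0.46) fell. Vwf read 3.32, 3.62, 3.68, 3.71 and 3.39 at 100 ppm and 3.97, 4.18, 3.98 and 4.16 at 4000 ppm, without overlap. The mean SD over probe sets was 1.19, 1.19, 1.22, 1.23 and 1.23 from 100 to 4000 ppm, and no member rose after quantile normalization. The beta-actin value differed from the 14 air controls at 500 ppm, 0.47 ± 0.04 (SD, n = 4) against 0.64 ± 0.13, with an exact two-sided permutation p of 0.000654 (0.0222 adjusted over 34 exposures), and its part was not tested. Of the other lists, 5 of 34 other endothelial genes and 3 of 10 Notch genes rose, and 2 other endothelial genes fell. Npr3 read 2.97, 2.85, 2.22, 1.80 and 3.17 at 100 ppm and 2.35, 0.74, 2.55 and 1.34 at 4000 ppm, with overlap. No member was called without the 100 or the 4000 ppm group, and with the air controls at 0 ppm 1 rose and Calcrl turned to 0.03. No member rose without array 2 or array 4 of every group, and 3 rose without array 3.

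Sox18 with Tetrafluororethane and Kdr at 30 ppm naphthalene were each the only called member. In the remaining exposures with 1 or 2 called members, these were receptors for vasoactive peptides. Npr3, which clears natriuretic peptides, fell with Malathion, an insecticide: the arrays read 1.23, 0.93, 0.94 and 0.64 against 1.76, 2.45, 2.68 and 2.25, 2.55-fold lower with a limma adjusted p of 0.03, the 1 called of 38 against 0.717% of all genes called lower. This call was made in 2 of 8 leave-out fits, failing without exposed arrays 1, 3 or 4 and control arrays 2, 3 or 4. Calcrl, the receptor of adrenomedullin, read 4.09, 3.73, 4.09 and 3.59 with N-Methylolacrylamide against 3.15, 3.49, 3.32 and 2.56 in water controls. It was 1.67-fold higher with a limma adjusted p of 0.0323, and Ednrb rose 1.58-fold there. These were 2 of 38 members called, against 4.19% of all genes, a share near the background. Both calls were lost when the arrays were fitted alone and without exposed array 1 or 3 or control array 1 or 4, and that of Calcrl also without control array 3 and with the mean of its probe sets. With 1,2,3-Trichloropropane Calcrl read 4.03, 3.94, 3.98 and 3.99 against 2.60 to 3.94 on 10 corn oil arrays. It was 1.58-fold higher with a limma adjusted p of 0.0202, 1 of 38 against 7.73% of all genes, a share below the background. That call was lost after quantile normalization, with the arrays fitted alone and without exposed array 1, 2 or 4, CCO5 array 2, 3 or 5 or CCO6 array 4. The exposed arrays had a mean SD over probe sets of 1.36 against 1.23, with an exact two-sided permutation p of 0.036 (0.245 adjusted). The RNA integrity number was 9.4 to 9.6 on the 4 exposed arrays and 6.7 to 8.8 on the 8 controls that had one. The part of both measures was not tested. In both groups another Calcrl probe set was higher too (0.97 and 1.30) and a dim probe set was not (-0.12 and -0.17). Npr1, which makes cyclic GMP on binding natriuretic peptides, was 1.37-fold higher with Propylene glycol mono-t-butyl ether, at 0.72, 0.59, 0.65 and 0.54 with a limma adjusted p of 0.00856, 1 of 38 against 0.614%; the call was lost with the arrays fitted alone and without exposed array 1 or 3. The mean SD over probe sets was 1.32 on exposed arrays and 1.23 on controls, with an exact two-sided permutation p of 0.0176 (0.243 adjusted), and its part was not tested. With 1,2-Dibromoethane it was 1.24-fold lower, at 0.17, -0.01, 0.01 and -0.07 with a limma adjusted p of 0.0273, 1 of 38 against 0.362%; the call was lost with the arrays fitted alone and without exposed array 2, 3 or 4, CCO2 array 4 or CCO3 array 1.

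By role, each VEGF receptor was called in at least 2 exposures: Flt4 higher in 2 and lower in 1, Flt1 higher in 1 and lower in 1, Kdr lower in 2. Of the Sox factors, Sox18 was higher in 3 exposures and Sox17 in 2. Among those of Sox18, Tetrafluoroethylene and Tetrafluororethane shared their control arrays. The exposures of Kdr, Vanadium Pentoxide and 30 ppm naphthalene, shared the same 14 air controls and are not independent. Both Kdr calls were lost without ACO3 array 1 and without ACO5 array 3. All 3 genes of the BMP and TGF-beta branch (Acvrl1, Eng and Smad6) were called higher in 2 exposures each. The junction genes Cldn5, Robo4 and Cd93 were each higher in 1 and lower in 1. Of all genes, 15.6% were called higher with Iodoform, 10.4% with BBMP, 5.65% with Tetrafluoroethylene and 0.0592% with Tetrafluororethane. Called lower were 1.63% with Coumarin, 1.31% with Vanadium Pentoxide and 0.466% at 30 ppm naphthalene. The Iodoform and BBMP calls thus stood on a high background. Of the 9 members never called against controls, Tek ranged from -0.49 to 0.41, Sox7 from -0.46 to 0.38, Esam from -0.39 to 0.35 and Emcn from -0.54 to 0.63. Vwf ranged from -0.48 to 0.39, Ramp2, the partner of Calcrl, from -0.40 to 0.31, Car4, a carbonic anhydrase of alveolar capillaries, from -0.47 to 0.30, Gja5 from -0.29 to 0.18 and the lymphatic receptor Lyve1 from -0.70 to 0.59.

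The members also varied together between arrays of a group. Over 703 pairs and the 133 exposed and 58 control arrays, after subtraction of the group means, the median correlation was 0.49, the highest 0.89 (Tie1 with Eng) and the lowest -0.35. Robo4 (0.58) and Tie1 (0.57) had the highest mean correlation with the other members, and Calcrl (0.02), Npr3 (0.07), Gja5 (0.13), Erg (0.14) and Emcn (0.15) the lowest. The mean of the 38 correlated at 0.89 with the Notch list and 0.88 with the other endothelial list. It correlated at 0.73 with fibroblast and matrix, 0.67 with alveolar type 1 and 0.57 with pericyte and smooth muscle genes. For angiogenic ligands the value was 0.56, and for alveolar type 2 genes 0.54. It was 0.02 with club, -0.04 with ciliated and 0.09 with leukocyte genes. Over 13486 other genes, the median correlation of a gene with the mean of the 38 was 0.28. The mean of the 38 correlated at 0.72 with the SD of the array over all probe sets, at -0.22 with the beta-actin value and, on 159 arrays, at 0.12 with the RNA integrity number. Points share arrays and normalization, so these are descriptions. Of the markers of lung tissue, the type 2 mean was 5.04 to 5.54 on the air controls of VANP, against a median of all values of -0.39, while the mean of 9 cardiac muscle markers ran from 0.59 to 3.27 there.

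**Figure D5:**
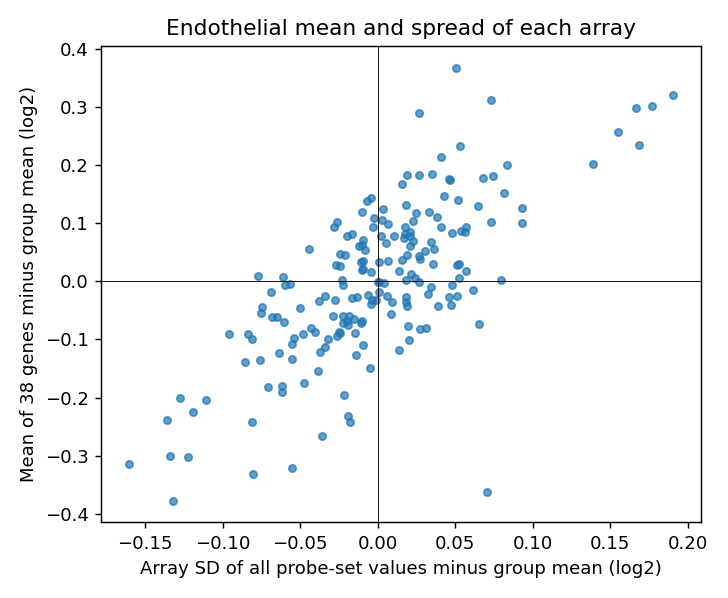
For each array, the mean log2 value of the 38 endothelial genes (y axis) against the SD of all probe-set values on that array (x axis), both minus their group mean. Arrays with a wide spread had high endothelial means, r = 0.72.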

How the data were processed

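Whole lung RNA was hybridised to Affymetrix mouse arrays, 133 exposed and 58 control. The log values deposited by the authors were taken as log2; the base, the background correction and the normalization are not given in the sources used here. Each array is centred near 0, with array means of -0.00269 to 0.00334 and SDs of 1.01 to 1.44, so differences in spread between arrays stay in the values. Of 45101 probe sets, 34958 had 1 gene symbol, 932 several and 9211 none, and 34754 matched a current name. The probe set with the highest mean stood for each of 18194 genes. Genes above the median of all values (-0.39) on at least 3 arrays were tested, 13524 in all.

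A group-means model over all arrays was fitted with limma 3.58.1 in R 4.3.3. Exposed means were compared with each control set of the same vehicle and array batch, taken from the array names; the difference given is against the unweighted mean of the set means, and the SD of controls is over all their arrays. Trends were fitted on concentration in ppm. The fits were also run on simulated data with independent normal noise for each gene. Those data held no correlation between genes and no differences in spread between arrays, so they cannot speak to either. Beta-actin values were compared by exact two-sided permutation (scipy 1.17.1). Named genes were all called members where 1 to 8 were called and otherwise the 8 largest, with the rest listed, and up to 4 called genes of other lists; the members, gene lists and shown genes were chosen with earlier results of these data known. Alternatives were no filter on low values, averaging a gene's probe sets, quantile normalization by array batch, fits on the comparison's arrays alone, other uses of the control sets, an RNA integrity number of at least 7, log10 concentration, air controls in the trend, and leaving out arrays or groups. Each leave-out fit dropped the arrays of 1 number from all exposed groups together, or from at most 1 control set per vehicle and array batch. In the trends the number was dropped from every concentration of the series. The number of arrays limits the precision.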

Additional observations from a re-analysis of the deposited data

Results flagged for a closer look

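In 96 groups of 4 to 10 arrays whose values were examined for the genes shown, 9 held an array far from the others, its gap exceeding Dixon's critical value; chance gives about 1 in 20. Among exposed groups called against controls, Cldn5 stood at 5.46 on Iodoform array 2, Sox18 at 4.28 on Tetrafluoroethylene array 2 and Ednrb at 2.94 on N-Methylolacrylamide array 3. In the control sets, Kdr stood at 2.48 on array 4 of ACO4 and Smad6 at 3.09 on array 2 of ACO1. In the naphthalene groups, Aplnr stood at 3.33 on array 4 and Tek at 3.46 on array 1 at 0.5 ppm, and Kdr at 2.59 on array 2 at 10 ppm. Plvap stood at 4.06 on array 3 at 4000 ppm methylene chloride.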

How the results depend on the processing

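Of 73 called gene values, 11 were called in every leave-out fit and 5 under every alternative as well (Sox18, Smad6, Cd93 and Plvap with Tetrafluoroethylene and Kdr in the naphthalene trend). The only value to change sign was Calcrl in the methylene chloride trend, 0.0348 with air controls at 0 ppm. Calls over all exposures ran from 7 to 35 higher and from 2 to 22 lower with 1 array number left out. Lower calls were 40 after quantile normalization and 73 against the unweighted mean of the set means. Under both, the shares of all genes called changed as well. Quantile normalization gave 5 lower for Coumarin, 13 lower for Vanadium Pentoxide, 0 higher for BBMP and for both trends, and 7 higher for Tetrafluororethane, which had 1. It also gave 5 lower for ABDQ, which had no called member before, against 2.73% of all genes. For DBET it gave 4 lower, against 0.821%, and for Iodoform 16 higher, against 18.7%. For MACR it gave 4 higher and 4 lower, against 11.3% and 12.1%, shares near the background. Fits on the comparison's arrays alone gave 0 for Coumarin, 0 for Iodoform, 9 for BBMP and 7 for Vanadium Pentoxide. The unweighted mean of the set means gave 19 for Coumarin and 19 for Vanadium Pentoxide. The mean of all probe sets gave 1 for BBMP, 1 lower for methylene chloride and 8 lower for naphthalene. In the leave-out fits the counts were 1 to 13 for Coumarin, 0 to 6 for BBMP, 0 to 6 for Vanadium Pentoxide, 4 to 11 for Tetrafluoroethylene and 0 to 17 for Iodoform. They were 0 to 6 higher and 0 to 1 lower in the methylene chloride trend, and 0 higher and 7 to 14 lower in the naphthalene trend. Alternatives added after the data were seen left out the arrays of extreme spread, which gave 1 for Coumarin, 0 for BBMP and 0 for Iodoform, and single concentrations. In the methylene chloride trend these gave 0 higher and 0 lower without 100 or 4000 ppm, 1 lower without 3000 ppm and 0 lower without 500 ppm. In the naphthalene trend they gave 0 higher without 0.5, 3, 20 or 30 ppm, and 2 lower without 0.5 ppm and 5 lower without 30 ppm. Log10 concentration gave 1 higher and 0 lower for methylene chloride. Air controls at 0 ppm gave 1 higher and 0 lower there, and 0 higher and 25 lower for naphthalene. The exposed arrays of the series alone gave 16 higher for methylene chloride and 26 lower for naphthalene. The cause of these changes was not tested. No paired analysis was possible because no animal number of the array names is shared by groups of the same vehicle and array batch, the groups compared. The 28 numbers that groups share lie in different array batches, and replicate numbers here only name arrays.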
